A study of Mus musculus with 13 samples.

Results

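The 8 adrenergic receptor genes described here, Adrb1, Adrb3, Adra1a, Adra1b, Adra1d, Adra2a, Adra2b and Adra2c, were taken by name from a count table of 54532 genes. They were followed in the aortas of 13 mice by RNA sequencing, 1 library per mouse. All mice lacked ApoE, were 10 weeks old at the start and received AngII (angiotensin II) from a subcutaneous pump at 1000 ng/kg/min for 28 days, a treatment that produces abdominal aortic aneurysm. The 6 Ad-sham mice received the empty adenovirus and the 7 Ad-FAM3A mice the same vector with mouse Fam3a and a FLAG tag under the EF1A promoter, which is not restricted to 1 cell type, in 5 tail vein injections. The sex of each mouse was not given in the labels, and no mice without AngII were among the samples. Whole pieces of aorta were sequenced, so fewer cells of a type and less RNA per cell cannot be told apart in any value below. Adrb3 had been picked because it was lower in Ad-FAM3A aortas, so its difference between the virus groups is given as a description with no test.

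Adrenergic receptors are membrane receptors for noradrenaline, released by sympathetic nerve endings, and for adrenaline from the adrenal medulla. The beta receptors couple to the stimulatory G protein and raise cAMP, which in fat cells drives lipolysis and, in brown fat, heat production. The alpha-1 receptors couple to the Gq class, raise calcium in the cell and contract vascular smooth muscle, whereas the alpha-2 receptors couple to inhibitory G proteins and, on nerve endings, restrain further noradrenaline release. The aorta carries smooth muscle in its media and nerves and fat in and around its adventitia, so the receptors were related to marker genes of these tissues in the same aortas.

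The libraries held 14481179 to 19797407 counts, and 3 counts corresponded to 0.140 to 0.221 CPM (counts per library size, the latter scaled by the TMM method). The delivered gene itself was not higher in the aortas that had received it, with a lowest, median and highest Fam3a level of 17.9, 24.9 and 30.3 CPM in Ad-sham and 18.5, 23.0 and 29.8 CPM in Ad-FAM3A (two-sided exact permutation test, p = 0.835). The aortas were aortic by their markers, Acta2 lying between 1368 and 10205 CPM and Myh11 between 494 and 4739 CPM, and all held fat, with Adipoq at 185 to 809 CPM and the brown fat gene Ucp1 at 230 to 2193 CPM. 6 aortas had a kidney marker score (Ad-sham 3, 5 and 6 and Ad-FAM3A 3) or a cardiac muscle score (Ad-sham 1 and Ad-FAM3A 6) over 3 log2 units above the median of the 13, and 0 passed that limit on the sympathetic neuron score. Values in the 7 aortas without them (2 Ad-sham and 5 Ad-FAM3A) are given beside the receptor results that differed most. Between the virus groups edgeR called 0 of 15811 genes (the limits being 0.05 for the adjusted p and 1 for the size of the log2 fold change), limma-voom called 0, DESeq2 called 9 of 30715, and 934 genes had an unadjusted p under 0.05 by edgeR.

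Per gene length, Adrb3 was the most abundant receptor transcript of the aorta, Adra1d came next, and the other 6 lay well below. Adrb3, the beta-3 receptor that is typical of fat cells, averaged 44.6 ± 20.02 FPKM (counts divided by gene length and by the library total, mean ± SD, n = 13) and was the top receptor in 13 of 13 aortas, with 45.4% to 78.6% of the summed FPKM of the 8 genes. Adra1d, an alpha-1 receptor of arterial smooth muscle, averaged 14.2 ± 7.10 FPKM and ranged from 4.56% to 36.4% of the sum. A middle group followed, with Adra2a at 4.23 ± 3.22, Adra1a at 3.85 ± 1.78 and Adrb1 at 3.69 ± 2.46 FPKM. The lowest were Adra2c at 1.56 ± 1.03, Adra2b at 1.05 ± 1.05 and Adra1b at 0.974 ± 0.345 FPKM.

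Not every step of that order held within the aortas. Adrb3 exceeded Adra1d in 13 of 13 aortas, Adra1d exceeded Adra2a in 12, Adrb1 exceeded Adra2c in 11 and Adra2c exceeded Adra2b in 12, each by a mean log2 difference larger than its SD. The neighbours Adra2a and Adra1a did not differ beyond their spread (Adra2a higher in 5 of 13 aortas), nor did Adra1a and Adrb1 (8 of 13) or Adra2b and Adra1b (5 of 13). The order was the same when the totals were scaled by TMM.

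**Figure D1:**
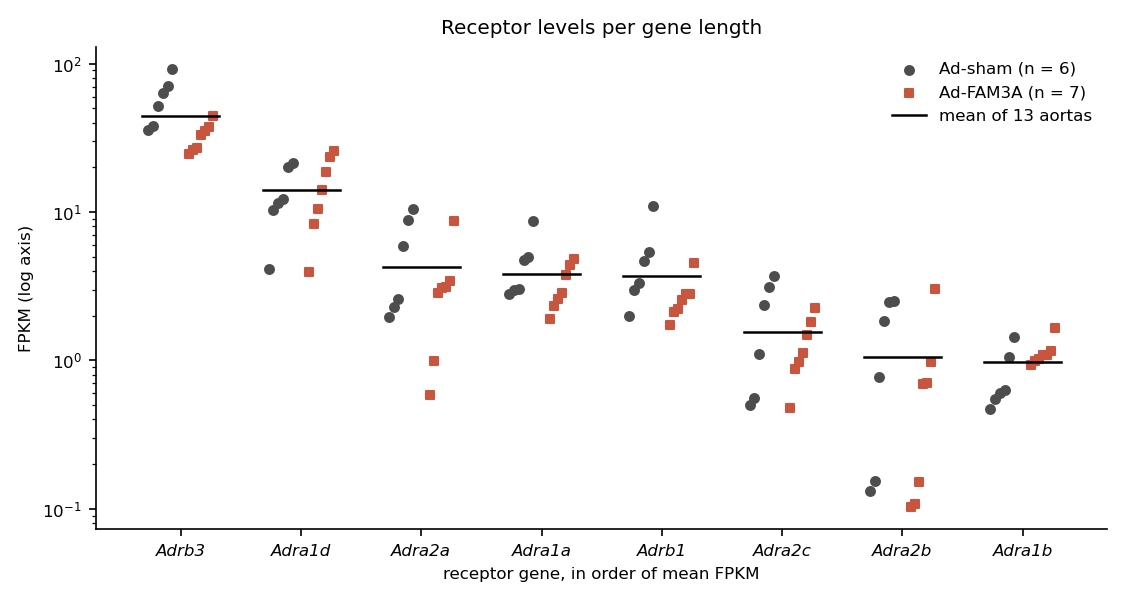
Level of each receptor gene per aorta in FPKM on a log axis, the genes ordered by their mean over 13 aortas (black line), with Ad-sham aortas as circles and Ad-FAM3A aortas as squares. Adrb3, averaging 44.6 FPKM, stands above all others, and Adra2b spreads from 0.102 to 3.03 FPKM.

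The genes differed widely in how much they varied from aorta to aorta. The highest aorta exceeded the lowest 28.3-fold for Adra2b, 17.8-fold for Adra2a, 7.22-fold for Adra1d, 6.67-fold for Adra2c, 6.66-fold for Adrb1, 4.39-fold for Adra1a, 3.75-fold for Adrb3 and 3.55-fold for Adra1b. The same aorta, Ad-sham 3, was the highest of the 13 for Adrb1, Adrb3 and Adra1a. Between the virus groups 0 of the 8 receptors had CPM ranges that did not overlap, against 0.0949% of all genes tested. Of the 7 receptors with a test, edgeR called 0, against 0% of all genes tested, DESeq2 called 0, against 0.0293%, and 1 (Adrb1) had an unadjusted p under 0.05, against 5.91% of all genes tested by edgeR. Leaving out Adrb3, which had been picked for its direction, the difference was negative on the log2 scale for 5 of the 7 genes and positive for 2, with a median of -0.53, where the median of all genes tested was 0.00319.

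**Figure D2:**
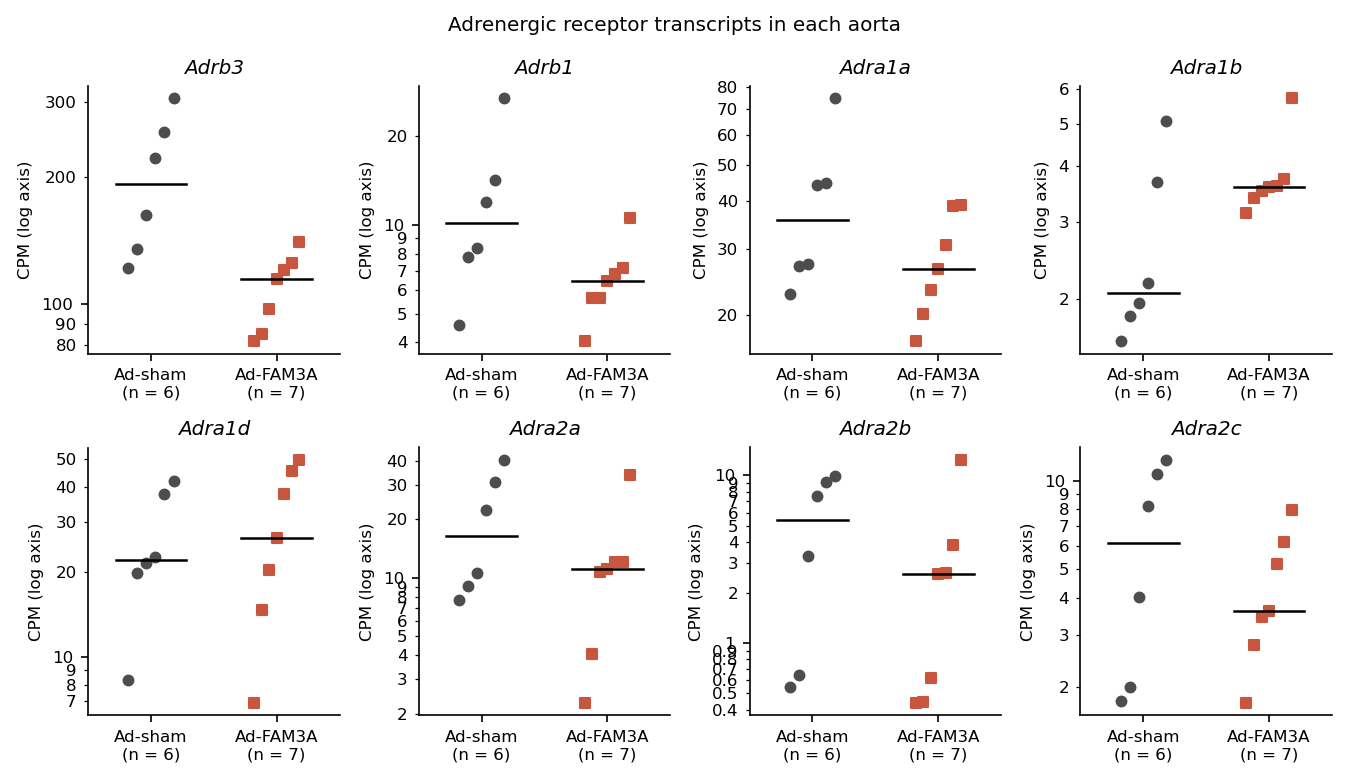
CPM of each receptor gene in each aorta on a log axis, Ad-sham (n = 6) as circles and Ad-FAM3A (n = 7) as squares, with the group median as a line. The groups overlap for every gene. For Adrb3 7 of 7 Ad-FAM3A aortas lie below the Ad-sham median, and for Adra1b 7 of 7 lie above it.

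Adrb3 (ENSMUSG00000031489, chromosome 8 from 27225776 to 27250616 on the minus strand of GRCm38) couples noradrenaline to lipolysis in white fat and to heat production in brown fat. Its lowest, median and highest levels were 122, 192 and 306 CPM in Ad-sham and 81.7, 114 and 140 CPM in Ad-FAM3A. All 7 Ad-FAM3A aortas were below the Ad-sham median, 5 of them below every Ad-sham aorta and 2 within the Ad-sham range. The log2 fold change was -0.87 ± 0.22 (SE), which is the value the gene was picked for and is not tested. It was -0.60 ± 0.17 with the adipose score as a covariate and -0.85 ± 0.24 with the smooth muscle score as one. Without the 6 aortas named above, which left 2 Ad-sham and 5 Ad-FAM3A aortas, it was -0.58 ± 0.24. An annotated antisense gene, Gm45470, overlaps an exon of Adrb3 and had 23 to 145 counts of its own, against 1205 to 4852 for Adrb3, and the strand setting of the counting was not stated.

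Adrb1 (ENSMUSG00000035283, chromosome 19 from 56722372 to 56724862 on the plus strand) is the beta-1 receptor, best known from the heart and present in fat, and its only coding transcript is a single exon. The lowest, median and highest levels were 4.58, 10.2 and 26.9 CPM in Ad-sham and 4.04, 6.46 and 10.5 CPM in Ad-FAM3A. Most Ad-FAM3A aortas (6 of 7) lay below the Ad-sham median, but 6 of 7 also lay within the Ad-sham range, and Ad-sham 1, 2 and 3 lay above every Ad-FAM3A aorta, with Ad-sham 3 well above the other two. The log2 fold change was -0.89 ± 0.35 (adjusted p = 0.810 by edgeR, two-sided exact permutation p = 0.0711). That value was -0.50 without Ad-sham 3, -0.50 ± 0.34 with the adipose score as a covariate and -0.43 ± 0.33 in the 7 aortas without high kidney or cardiac scores.

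For both beta receptors r with the adipose score was positive over the 13 aortas and within each virus group. No test of it with this score passed after adjustment, over the 13 aortas (Adrb1 only) or within a group. Adipose content was scored as the mean log2 CPM of 12 adipocyte genes, among them Adipoq and Plin1, and the score had a lowest, median and highest value of 7.60, 8.35 and 9.39 in Ad-sham and 7.20, 7.90 and 8.84 in Ad-FAM3A. Ad-sham 1, 2 and 3 lay above every Ad-FAM3A aorta and Ad-FAM3A 3 and 5 below every Ad-sham aorta, but the difference of -0.49 did not pass (two-sided exact permutation test, p = 0.233). Over the 13 aortas Pearson's r with this score was 0.748 for Adrb3 (Spearman's rho 0.659), given with no p because the pooled relation holds the contrast Adrb3 was picked for. Within Ad-sham r was 0.860 (exact permutation p = 0.0889, adjusted 0.685 over 32 within-group relations) and within Ad-FAM3A 0.612 (exact p = 0.150, adjusted 0.685), so neither group alone passed. Without the 2 aortas farthest from the median score, Ad-sham 1 and 2, r for Adrb3 was 0.606.

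For Adrb1 r with the adipose score was 0.653 (permutation p = 0.0131, adjusted 0.0616 over 14 relations; rho 0.665, p = 0.0155, adjusted 0.0723). The adjusted value missed 0.05, and r was 0.723 within Ad-sham, 0.332 within Ad-FAM3A and 0.563 (permutation p = 0.0655) without Ad-sham 1 and 2, so the relation rested in part on those 2 aortas. When 1 aorta was left out r ranged from 0.600 to 0.711, and it passed only without Ad-FAM3A 1 (adjusted permutation p = 0.0392). With the brown fat list (Ucp1, Cox8b, Prdm16 and 6 others) in place of the adipose list r was 0.750 and did pass (adjusted permutation p = 0.0105), with r of 0.865 within Ad-sham and 0.176 within Ad-FAM3A. With the smooth muscle score r was -0.190 for Adrb1 (permutation p = 0.534) and -0.186 for Adrb3. Those values depended on single aortas, being -0.592 and -0.580 without Ad-FAM3A 6 (adjusted permutation p = 0.103 for Adrb1) and -0.038 and 0.033 without Ad-sham 1. They also differed in sign between the groups, at -0.494 and -0.532 within Ad-sham and 0.351 and 0.441 within Ad-FAM3A, none of which passed. In the 7 aortas without high scores Adrb1 had an r of -0.631 with smooth muscle and 0.609 with fat (adjusted permutation p = 0.523 for both).

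Adra1a (ENSMUSG00000045875, chromosome 14 from 66635251 to 66771168 on the plus strand) encodes the alpha-1A receptor, a contractile receptor of smooth muscle that is also found in heart, liver and brown fat. Its lowest, median and highest levels were 22.8, 35.8 and 75.0 CPM in Ad-sham and 17.1, 26.6 and 39.1 CPM in Ad-FAM3A. The groups overlapped, with 5 of 7 Ad-FAM3A aortas in the Ad-sham range, Ad-sham 1, 2 and 3 above every Ad-FAM3A aorta and Ad-sham 3 well above all others. The log2 fold change of -0.52 ± 0.28 did not pass (edgeR adjusted p = 0.811, two-sided exact permutation p = 0.163), and it was -0.25 without Ad-sham 3, -0.19 ± 0.26 with the adipose score as a covariate and -0.29 ± 0.32 in the 7 aortas without high scores.

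Over the 13 aortas the r of Adra1a with the adipose score was 0.660 (permutation p = 0.0132, adjusted 0.0616; rho 0.714, p = 0.00821, adjusted 0.0575), and 0.767 with the brown fat list (adjusted permutation p = 0.0105), where it was 0.872 within Ad-sham and 0.425 within Ad-FAM3A. The relation with the adipose list missed the adjusted threshold, was 0.803 within Ad-sham and 0.304 within Ad-FAM3A, and was 0.579 (permutation p = 0.0576) without Ad-sham 1 and 2. When 1 aorta was left out r ranged from 0.592 (without Ad-FAM3A 3) to 0.827 (without Ad-FAM3A 1). Only the run without Ad-FAM3A 1, the aorta that stood off this trend, passed, the adjusted permutation p running from 0.00539 there to 0.191. With the smooth muscle score r was -0.376 (permutation p = 0.204). The order of the sizes turned in the 7 aortas without high scores, where r was 0.404 with fat and -0.531 with smooth muscle, neither of which passed (adjusted permutation p = 0.719 and 0.523). Within Ad-sham r with the fibroblast score was larger in size than with the adipose score and negative, at -0.941 for Adrb1, -0.905 for Adrb3 and -0.989 for Adra1a, and so was that of Adrb3 with the endothelial score (-0.924). Within Ad-FAM3A the r with the fibroblast score was 0.397, 0.268 and -0.510, and that of Adrb3 with the endothelial score 0.632. These are descriptions, and the part of these cell types in the receptor values was not tested. Adrb1, Adrb3 and Adra1a also varied together, with r of 0.858 between Adrb1 and Adrb3, 0.825 between Adrb1 and Adra1a and 0.760 between Adrb3 and Adra1a (descriptions over 13 aortas that share libraries).

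Adra1d (ENSMUSG00000027335, chromosome 2 from 131545850 to 131562283 on the minus strand) encodes the alpha-1D receptor, known as a main contractile alpha-1 receptor of the rodent aorta. Its lowest, median and highest levels were 8.33, 22.1 and 41.9 CPM in Ad-sham and 6.91, 26.4 and 49.9 CPM in Ad-FAM3A. High and low aortas occurred in both groups, and 2 Ad-FAM3A aortas lay above and 1 below the Ad-sham range. Its difference of 0.18 ± 0.43 log2 units did not pass (edgeR adjusted p = 0.932, two-sided exact permutation p = 0.850). Its sign depended on the samples and covariates, being -0.28 ± 0.29 with the smooth muscle score as a covariate and -0.014 without Ad-sham 1. The antisense gene Gm14285 overlaps an exon of Adra1d and had 0 to 23 counts, against 113 to 811 for Adra1d.

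Of the 14 relations with the adipose and smooth muscle scores, that of Adra1d with smooth muscle was the 1 that passed over the 13 aortas. The smooth muscle score, the mean log2 CPM of 14 contractile genes including Acta2 and Myh11, had a lowest, median and highest value of 6.999, 8.25 and 8.84 in Ad-sham and 6.64, 8.79 and 9.49 in Ad-FAM3A (difference 0.32, two-sided exact permutation p = 0.505). Adra1d rose with it, with r = 0.848 over 13 aortas (permutation p = 0.0004, adjusted 0.0056; rho 0.753, p = 0.00436, adjusted 0.0575). Within Ad-FAM3A r was 0.946 (exact permutation p = 0.00298, adjusted 0.0952) and within Ad-sham 0.675 (exact p = 0.133, adjusted 0.685). The 2 aortas farthest from the median score were the lowest ones, Ad-sham 1 and Ad-FAM3A 6, where Adra1d was also lowest at 8.33 and 6.91 CPM. Without both r was 0.578 (permutation p = 0.0634), so the call rests on those samples. In the 7 aortas without high scores, which also lack both, r was 0.792 (adjusted permutation p = 0.453). Ad-sham 1 and Ad-FAM3A 6 were among the aortas with a high cardiac muscle score (3.52 and 3.17 log2 CPM, against -0.49 to 1.98 in the other 11).

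Adra1b (ENSMUSG00000050541, chromosome 11 from 43774606 to 43901210 on the minus strand) encodes the alpha-1B receptor and, with Adra2b, was at the low end of the 8. Its lowest, median and highest levels were 1.61, 2.07 and 5.07 CPM in Ad-sham and 3.13, 3.60 and 5.71 CPM in Ad-FAM3A. All 7 Ad-FAM3A aortas lay above the Ad-sham median, but 6 lay within the Ad-sham range because Ad-sham 2 and 4 were also high. Its difference of 0.49 ± 0.30 log2 units did not pass over all genes (edgeR adjusted p = 0.812), while the two-sided exact permutation test on this gene alone gave p = 0.0443, 1 of 7 such tests and the lowest of them (the smallest p these splits allow is 0.000583). When 1 aorta was left out the log2 fold change ranged from 0.37 (without Ad-sham 6) to 0.76 (without Ad-sham 4). Without the 6 aortas named above its sign turned, to -0.17 ± 0.37 in 2 against 5 aortas. Its r with the smooth muscle score was 0.489 (permutation p = 0.0899, adjusted 0.252) and with the adipose score -0.132. With smooth muscle it was 0.585 within Ad-sham, 0.477 within Ad-FAM3A and 0.729 without Ad-sham 1 and Ad-FAM3A 6 (unadjusted permutation p = 0.0115), and whether it differs from that of Adra1d was not tested.

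The alpha-2 receptors varied together, and each had the same 4 highest aortas, Ad-sham 3, 5 and 6 and Ad-FAM3A 3. Adra2b (ENSMUSG00000058620, chromosome 2 from 127363208 to 127367221 on the plus strand), a single-exon gene, had a lowest, median and highest level of 0.545, 5.41 and 9.97 CPM in Ad-sham and 0.439, 2.57 and 12.4 CPM in Ad-FAM3A. Counts were 117, 158, 176 and 196 in Ad-sham 6, Ad-sham 3, Ad-FAM3A 3 and Ad-sham 5, between 42 and 64 in 4 aortas and 6 to 10 in the remaining 5, so both groups contained aortas at either end. Its log2 fold change was -0.67 ± 0.84 (edgeR adjusted p = 0.875, two-sided exact permutation p = 0.436), and it was -0.38 without Ad-sham 3 and -1.54 without Ad-FAM3A 3.

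Adra2a (ENSMUSG00000033717, chromosome 19 from 54045182 to 54048982 on the plus strand), the alpha-2A receptor of nerve endings and fat cells, had a lowest, median and highest level of 7.70, 16.4 and 40.6 CPM in Ad-sham and 2.27, 11.1 and 33.9 CPM in Ad-FAM3A. The 4 highest aortas were again Ad-sham 3, 5 and 6 and Ad-FAM3A 3. Its log2 fold change was -0.72 ± 0.55 (edgeR adjusted p = 0.824, two-sided exact permutation p = 0.214), and single aortas moved it to -0.39 (without Ad-sham 6) and -1.19 (without Ad-FAM3A 3).

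Adra2c (ENSMUSG00000045318, chromosome 5 from 35278319 to 35281763 on the plus strand), the alpha-2C receptor of sympathetic neurons and a single-exon gene, had a lowest, median and highest level of 1.80, 6.13 and 11.8 CPM in Ad-sham and 1.77, 3.61 and 7.97 CPM in Ad-FAM3A. The same 3 Ad-sham aortas and Ad-FAM3A 3 were the highest 4. Between the groups it differed by -0.53 ± 0.47 log2 units (edgeR adjusted p = 0.838, two-sided exact permutation p = 0.555), or by -0.28 without Ad-sham 5. Without the 6 aortas named above, which include those 4, the log2 fold changes were 1.41 ± 1.03 for Adra2b, 1.02 ± 0.55 for Adra2c and -0.03 ± 0.61 for Adra2a in 2 against 5 aortas, so 2 of the 3 changed sign. With the adipose score as a covariate they were -1.10 ± 0.51 for Adra2a, -1.03 ± 0.91 for Adra2b and -0.62 ± 0.50 for Adra2c, and with the smooth muscle score -0.65 ± 0.57, -0.36 ± 0.86 and -0.50 ± 0.52.

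The alpha-2 genes varied together and with markers of sympathetic neurons. Over the 13 aortas their relations with fat and smooth muscle did not pass after adjustment. With the adipose score r was -0.269 for Adra2a, -0.0732 for Adra2b and -0.0666 for Adra2c, and with the smooth muscle score -0.297, -0.524 and -0.189 (lowest permutation p over 13 aortas = 0.0675, adjusted 0.236, for Adra2b). Without Ad-sham 1 and Ad-FAM3A 6 the r with smooth muscle was -0.573, -0.773 and -0.455 (unadjusted permutation p = 0.0662, 0.0068 and 0.158). The smooth muscle and sympathetic neuron scores were themselves correlated at -0.567. Between them r was 0.827 for Adra2b and Adra2c, 0.822 for Adra2a and Adra2b and 0.750 for Adra2a and Adra2c. The sympathetic neuron score, the mean log2 CPM of 12 genes such as Th and Dbh, the enzymes of noradrenaline synthesis, ran from -0.74 to 6.83 in Ad-sham and from 1.67 to 6.73 in Ad-FAM3A, and Dbh itself from 0 to 476 CPM. This score was set beside the receptors after their values had been seen, so its relations are descriptions: over 13 aortas r was 0.921 for Adra2b, 0.822 for Adra2c and 0.647 for Adra2a.

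The relation was seen in both virus groups for Adra2b, with r of 0.950 in Ad-sham and 0.979 in Ad-FAM3A. For Adra2c r was 0.930 and 0.593, and for Adra2a 0.753 and 0.691. In the 7 aortas without high scores r was 0.787 for Adra2b, 0.625 for Adra2c and 0.0859 for Adra2a. Adra1b went the opposite way, with r of -0.731 over 13 aortas, -0.962 within Ad-sham and -0.486 within Ad-FAM3A, and r between Adra1b and Adra2b was -0.723. The remaining receptors had r of 0.127 (Adrb3), 0.0873 (Adrb1), 0.0151 (Adra1a) and -0.408 (Adra1d) with that score.

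Other tissues moved with the neuron markers in the same aortas. Kidney markers were high in the 4 aortas with the most alpha-2 transcripts, with a kidney score of 2.41 to 4.45 there and of -2.42 to 0.12 in the other 9, and r with the kidney score was 0.750 for Adra2b, 0.722 for Adra2c and 0.682 for Adra2a. Of the 10 kidney genes 6 passed the filter, and the summed level of all 10 ran from 1.27 to 686 CPM in Ad-sham and from 1.38 to 414 CPM in Ad-FAM3A. Kap and Slc34a1, of the proximal tubule, had medians of 0.727 and 0.550 CPM over the 13 aortas and reached 489 CPM in Ad-sham 6 and 102 CPM in Ad-FAM3A 3. Umod and Slc12a1, of the thick ascending limb, had medians of 0 and reached 27.5 CPM in Ad-sham 3 and 8.54 CPM in Ad-FAM3A 3. The Schwann cell score, for the glia that ensheathe nerve fibres, gave 0.904, 0.737 and 0.802 for Adra2b, Adra2c and Adra2a. The neuron score was correlated with the kidney score at 0.609 and with the Schwann cell score at 0.759, and the part of each tissue in the alpha-2 values was not tested. Of the 6 adrenal cortex genes only Star passed the filter, with a median of 4.80 and a maximum of 6.56 CPM. The steroid enzymes Hsd3b1, Cyp11a1, Cyp11b1, Cyp21a1 and Cyp11b2 reached at most 1.51, 0.927, 0.300, 0.246 and 0.0615 CPM in any aorta.

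**Figure D3:**
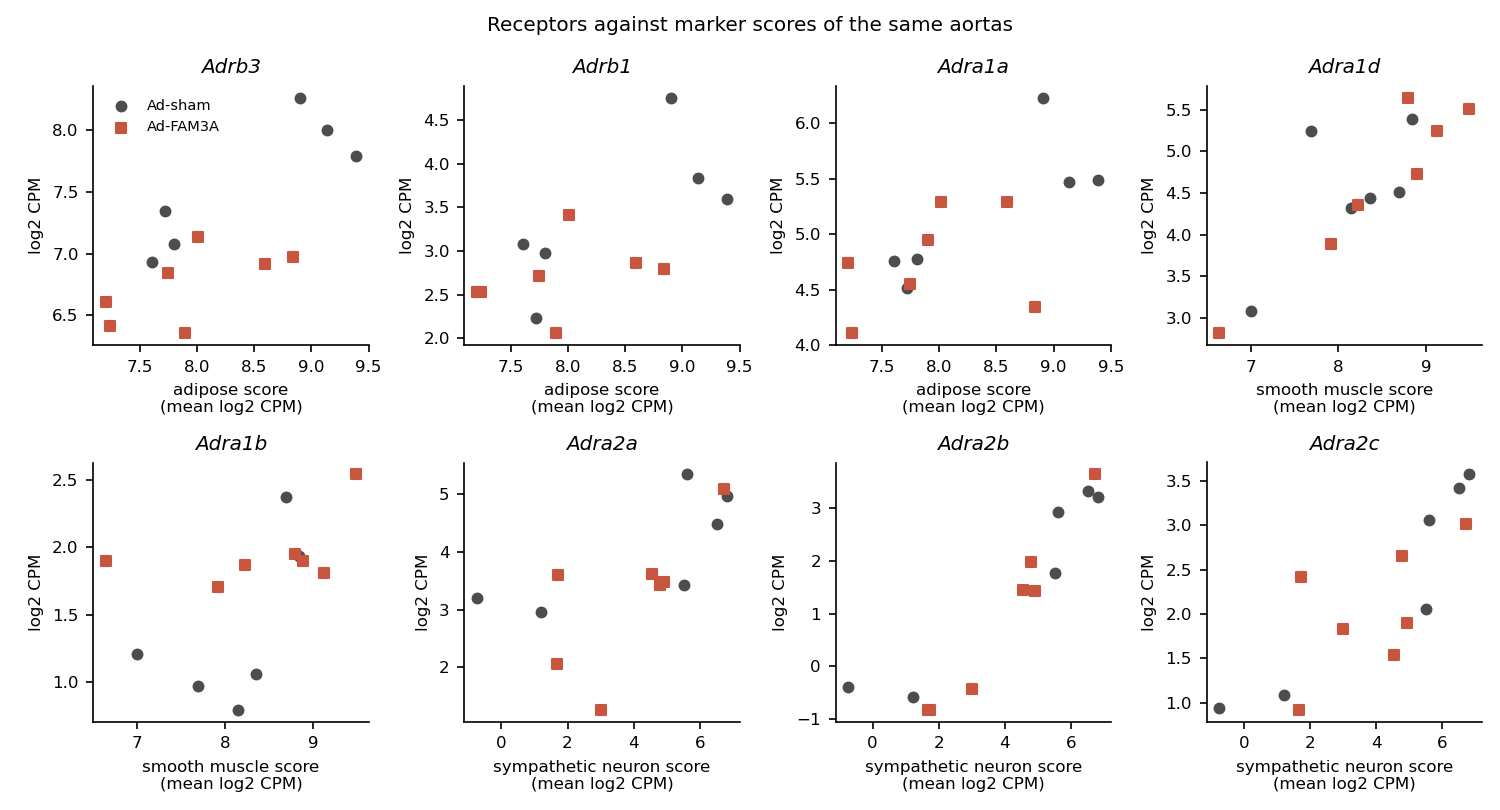
Log2 CPM of each receptor against the mean log2 CPM of a marker list in the same 13 aortas (adipose for Adrb3, Adrb1 and Adra1a, smooth muscle for Adra1d and Adra1b, sympathetic neuron for the alpha-2 genes), Ad-sham as circles and Ad-FAM3A as squares. The 2 aortas at the lower left of the Adra1d panel are Ad-sham 1 and Ad-FAM3A 6, and the 4 highest Adra2b aortas are Ad-sham 3, 5 and 6 and Ad-FAM3A 3.

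Because the 3 alpha-2 genes varied together, their promoters are shown, each from 250 bases before to 50 bases after the start site in RefSeq (GRCm38.p6), 5′ to 3′ on the gene's strand. 5 of the 8 receptors had an entry in the promoter table. Capitals mark 3 motifs, each searched on both strands. The GC box, spelled GGGCGG, was found in 35.7% of 32851 promoter windows of the same length. The CCAAT motif was found in 37.4% of these windows. The TATA box was searched as the letters TATAAA and found in 13.6% of the windows.
Adra2a: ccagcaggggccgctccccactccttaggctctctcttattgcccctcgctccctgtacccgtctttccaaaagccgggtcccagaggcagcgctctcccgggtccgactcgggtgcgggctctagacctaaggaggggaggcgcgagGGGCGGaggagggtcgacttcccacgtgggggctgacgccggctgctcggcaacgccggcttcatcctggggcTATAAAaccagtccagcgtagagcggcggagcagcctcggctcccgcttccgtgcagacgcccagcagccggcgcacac
Adra2b: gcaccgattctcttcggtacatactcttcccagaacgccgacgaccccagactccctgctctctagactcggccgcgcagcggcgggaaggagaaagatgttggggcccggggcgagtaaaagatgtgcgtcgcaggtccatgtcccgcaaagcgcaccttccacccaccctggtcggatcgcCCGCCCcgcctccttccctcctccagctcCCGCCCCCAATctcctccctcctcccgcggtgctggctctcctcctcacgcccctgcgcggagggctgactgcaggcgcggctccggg
Adra2c: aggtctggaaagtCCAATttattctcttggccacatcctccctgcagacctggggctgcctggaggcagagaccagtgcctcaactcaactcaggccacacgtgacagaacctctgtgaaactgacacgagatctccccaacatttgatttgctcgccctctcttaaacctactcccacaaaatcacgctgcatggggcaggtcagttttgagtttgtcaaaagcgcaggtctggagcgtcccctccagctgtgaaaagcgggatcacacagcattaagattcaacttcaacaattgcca
The windows lie at chr19:54045009-54045308 for Adra2a, chr2:127362929-127363228 for Adra2b and chr5:35278316-35278615 for Adra2c, all on the plus strand. The first 2 were rich in GC (68.7% and 68.0%, against a median of 52.7% over all windows) and in CpG (28 and 29, median 7), while that of Adra2c had 51.3% GC and 7 CpG. In the Adra2a window a GC box began at -102 and a TATA box at -29 from the start site. The Adra2b window held GC boxes at -67 and -38, the second abutting a CCAAT motif at -32, and the Adra2c window held 1 CCAAT motif at -237. No motif of the 3 was shared by all 3 windows. The full cAMP response element (TGACGTCA), present in 1.79% of windows, was in none of them, which says only that these letters are not in these windows. Its shorter core, TGACG, was in 20.8% of all windows and in that of Adra2a, at -69 and printed in lower case, but not in those of Adra2b and Adra2c. The start sites in RefSeq differ from the gene starts in the count table, by which the Adra2c gene begins at 35278319, so that nearly its whole window lies inside the gene as counted.

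Of the genes whose log2 CPM was most like each receptor's over the 13 aortas, among 14981 genes with a mean of at least 1 CPM, those nearest Adrb3 were Oplah (r = 0.955), Adipor2 (0.929) and Mfn2 (0.924), followed by Slc25a22 and Tmem177. Nearest Adrb1 were Sox6 (0.914), Bcl2l13 (0.897), Sik2, 1700037H04Rik and Ntrk2, and nearest Adra1a were Il15ra (0.958), Gm9899 (0.933), Flcn, Slc25a42 and Akap1. Adra1d was most like Emc10 (0.952), Hoxb5 (0.946), Hoxb4 (0.945), Hdac5 and Wfdc1. Adra2b had the closest companions of all, Kif5c (0.984), Entpd3 (0.983), Rnft2 (0.982), Sv2a and Slc29a4. Adra2a was nearest to Grik3 (0.949) and Rasgrf2 (0.948), with Pde9a and Lrrc55 also among its 5, and Adra2c had Panx2 (0.931), Pard6b, Tubb4a and Spire2 among its 5. Adra1b had the loosest neighbours, Slc45a3 (0.860), Parp3 (0.859), Uba2, Spag1 and Tent5b.

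**Figure D4:**
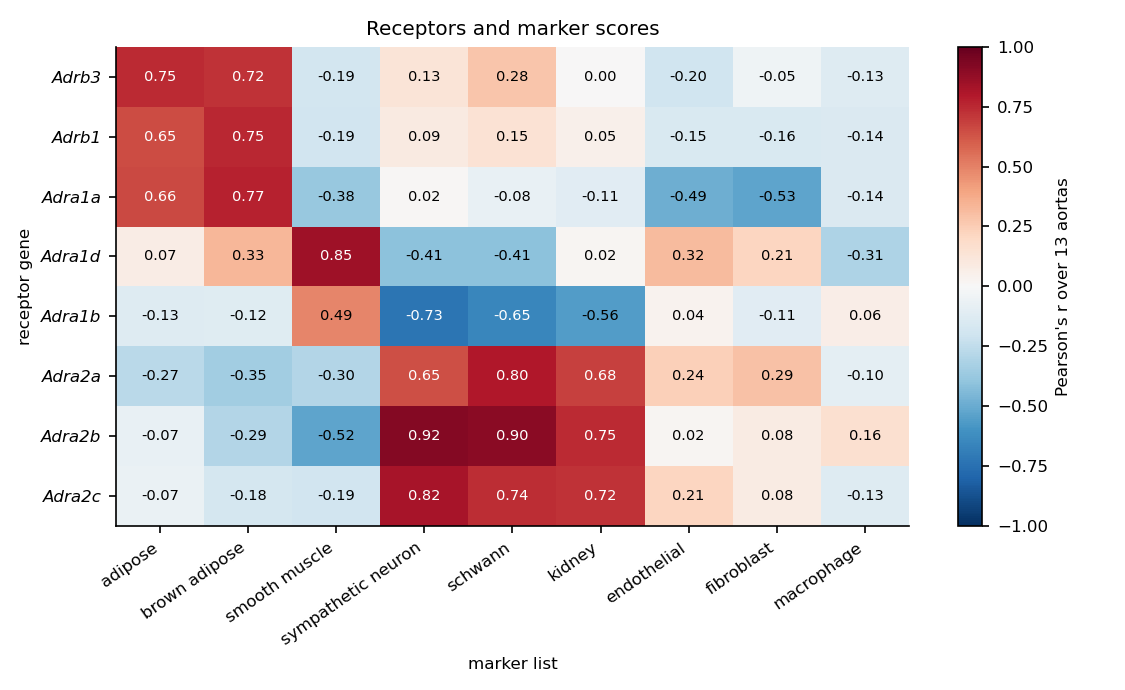
Pearson's r over 13 aortas between each receptor gene (rows) and the score of each marker list (columns), from -1 (blue) to 1 (red), as a description. Adrb3, Adrb1 and Adra1a are red in the 2 fat columns, Adra1d in the smooth muscle column and the alpha-2 genes in the sympathetic neuron, Schwann cell and kidney columns, where Adra1b is blue.

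The other genes of adrenergic signalling were read by role. All 54 genes of the 8 role lists were tested and 0 passed the adjusted threshold, against 0% of all genes tested. 28 had a negative and 26 a positive log2 fold change, 8 had an unadjusted p under 0.05 with a lower level in Ad-FAM3A, against 2.93% of all genes tested, and 0 with a higher one, against 2.98%. No adjusted p was below 0.810, so the values below are descriptions of differences that did not pass.

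Among the genes that take up and break down noradrenaline, all 5 log2 fold changes were negative with a median of -0.49. Maob, a monoamine oxidase, had a lowest, median and highest level of 59.7, 91.1 and 160 CPM in Ad-sham and 54.0, 68.2 and 86.4 CPM in Ad-FAM3A, with 7 of 7 below the Ad-sham median (-0.49 ± 0.20, edgeR adjusted p = 0.810). Slc6a2, the noradrenaline transporter of sympathetic endings, ran from 3.08 to 646 CPM in Ad-sham and from 12.2 to 978 CPM in Ad-FAM3A, and like Maoa it followed the sympathetic neuron score (r = 0.975 and 0.957).

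The G proteins that pass the signal on differed little, from -0.45 (Gnas, the stimulatory subunit) to 0.27 (Gnai3, an inhibitory one). Of the 9 adenylyl cyclases and phospholipases, Adcy3 had a lowest, median and highest level of 57.8, 66.4 and 95.9 CPM in Ad-sham and 32.3, 50.2 and 58.6 CPM in Ad-FAM3A. Every Ad-FAM3A aorta except Ad-FAM3A 2 lay under the lowest Ad-sham aorta, and the log2 fold change was -0.55 ± 0.16 (unadjusted p = 0.00299, edgeR adjusted p = 0.810). Adcy5 was the cyclase that varied most closely with the smooth muscle score (r = 0.947). For protein kinase A, the regulatory subunit Prkar2b gave -0.62 ± 0.26 and had an r of 0.785 with the adipose score, and the catalytic subunit Prkaca gave -0.39 ± 0.18 and 0.844. The 6 subunits were split, 3 negative and 3 positive, with Prkar1b at -0.60 ± 0.74 and Prkacb, Prkar1a and Prkar2a at 0.20 ± 0.14, 0.08 ± 0.15 and 0.21 ± 0.20. The last 3 had negative r with the adipose score (-0.691, -0.585 and -0.511). Among the cAMP phosphodiesterases Pde4a gave -0.30 ± 0.14 and Pde3a 0.49 ± 0.37, the latter with an r of 0.834 with smooth muscle. The 9 kinases, arrestins and other regulators of receptors were split, 3 negative and 6 positive, from -0.45 for Akap12 to 0.55 for Rgs4.

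The lipolysis genes, which carry out the response to beta receptors in fat cells, all had negative log2 fold changes, with a median of -0.72. Of these 5, 4 had an unadjusted p under 0.05 with a lower level, against 2.93% of all genes tested. They were measured in the same 13 aortas, so they are not independent observations. Lipe, hormone-sensitive lipase, had a lowest, median and highest level of 353, 407 and 910 CPM in Ad-sham and 169, 280 and 432 CPM in Ad-FAM3A, with 6 of 7 aortas below the Ad-sham median (-0.85 ± 0.29, edgeR adjusted p = 0.810). Abhd5, the activator of the triglyceride lipase Pnpla2, gave -0.72 ± 0.21, Mgll, monoglyceride lipase, -0.64 ± 0.20, Pnpla2 -0.57 ± 0.25 and G0s2, its inhibitor, -0.76 ± 0.53. These 5 genes had r of 0.557 to 0.842 with the adipose score, all 12 adipose markers had negative log2 fold changes (median -0.54), and the part of adipose content in the differences was not tested.

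The calcium and contraction genes downstream of alpha-1 receptors had 8 of 8 positive log2 fold changes with a median of 0.24, where the median of all genes tested was 0.00319. None had p under 0.05 before adjustment by edgeR, against 2.98% of all genes tested with a higher level. Mylk, myosin light chain kinase, which is also on the smooth muscle list, gave 0.13 ± 0.36 with an r of 0.972 with the smooth muscle score, and Cacna1c, the L-type calcium channel, 0.30 ± 0.32 and 0.857. All 14 smooth muscle markers had positive log2 fold changes (median 0.39), and the part of smooth muscle content in the calcium gene differences was not tested.

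**Figure D5:**
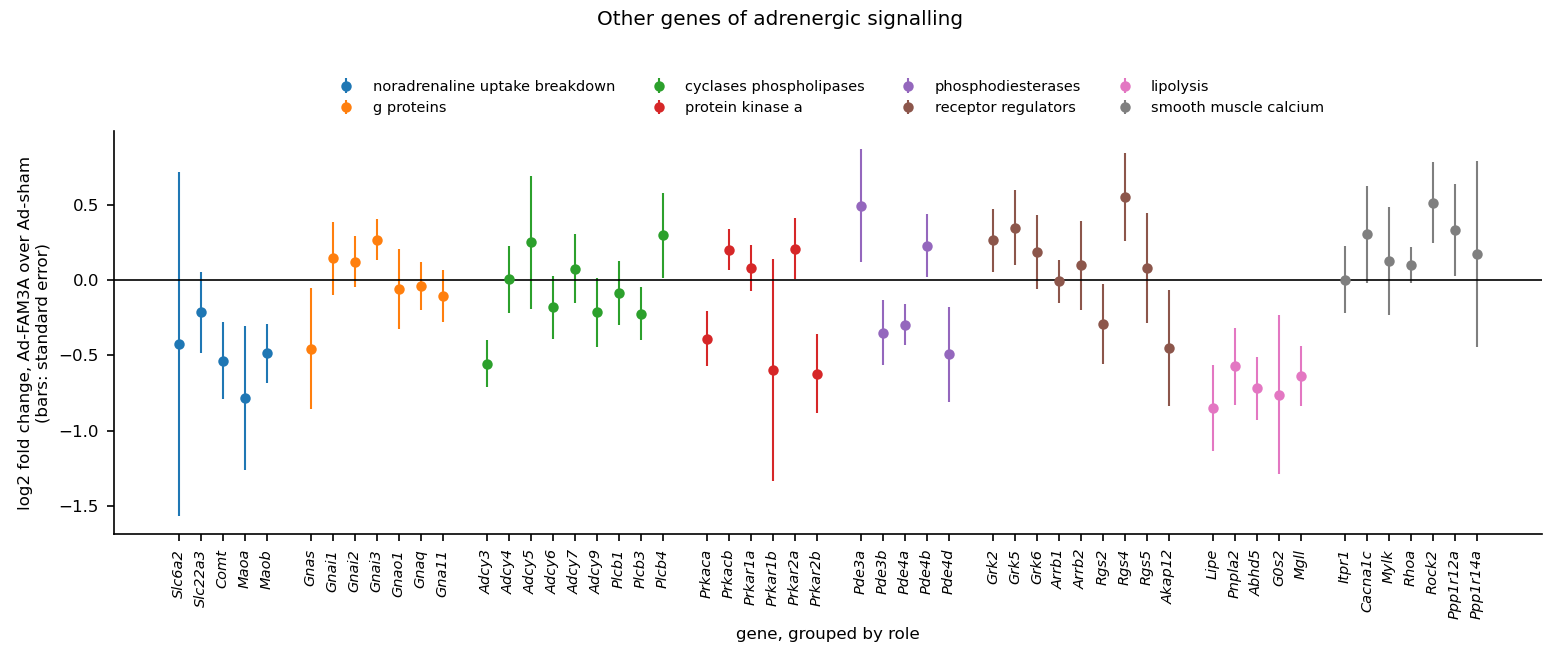
Log2 fold change of Ad-FAM3A over Ad-sham (points) with its standard error (bars) for the genes of adrenergic signalling other than the receptors, grouped by role in colours. One calcium gene is not drawn. The 5 lipolysis genes lie between -0.85 and -0.57, and none of the genes passed the adjusted threshold.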

How the data were processed

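Aortas of 6 Ad-sham and 7 Ad-FAM3A mice were grouped by their labels, and the members and gene lists were chosen with earlier results of these data known. Reads that passed quality control were mapped by the authors with Hisat2 (GRCm38) and summarised per gene with FeatureCounts, and the deposited counts are whole numbers without normalization. A second deposited table holds FPKM, averaged by the authors within each group, and no value printed here comes from it. The annotation release, the strand setting and the handling of reads mapping to several genes were not given in the sources used here. The labels and the methods name different RNA and library kits. 0 sample columns were left unmapped.

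Counts were tested with edgeR 4.0.16 (quasi-likelihood, TMM, filterByExpr, Benjamini-Hochberg over 15811 genes), with DESeq2 1.42.0 and limma-voom 3.58.1 as alternatives. All 8 receptors passed the filter. Log2 CPM used a prior count of 2, and FPKM for comparing genes were computed from the counts, the gene lengths of the table and the library totals. Marker scores are the mean log2 CPM of each list: adipose, brown adipose, smooth muscle, sympathetic neuron, Schwann cell, kidney, cardiac muscle and adrenal cortex, with skeletal muscle, endothelial, fibroblast, macrophage, lymphoid and liver lists beside them. Single genes and scores were compared by two-sided exact permutation over 1716 splits, and correlations by 100000 resamples. The genes named are the receptors, the list genes and, for each receptor, the 5 genes with the highest r, a few of which are not reported here. On simulated counts for this comparison (15574 genes, 200 changed by 2 log2 units) edgeR recovered 77% of them, and 6.67% of its calls were false. Each library is 1 mouse, so the SEs and SDs include variation between mice, while the 3-count floor covers counting error only. Coordinates were taken from the count table, and 6 of 8 receptors had the same start and end in GENCODE M21.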

Additional observations from a re-analysis of the deposited data

Results flagged for a closer look

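Of 26 groups of aortas examined for a sample far from the others (the 8 receptors and 5 marker scores in each virus group), 2 had one, where chance alone gives about 1 in 20, or 1.3 of 26. The Adra1b level of Ad-FAM3A 4 was 2.54 log2 CPM, against 1.70 to 1.95 in the other 6 Ad-FAM3A aortas. That aorta also had the highest smooth muscle score of the 13, 9.49. The kidney score of Ad-FAM3A 3 was 4.45, against -2.38 to 0.12 in the other 6 Ad-FAM3A aortas, and the same aorta had the highest Adra2b level, 12.4 CPM.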

How the results depend on the processing

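Between the virus groups no pathway gene and no receptor other than Adrb3, which was not tested, was called under any alternative run. These runs included leaving out each aorta in turn. Over all genes the number with an unadjusted p under 0.05 was 934, and 2269 of 30782 with no filter on low counts, 1501 of 30715 by DESeq2, 702 by limma-voom and 491 to 1345 when 1 aorta was left out, the lowest without Ad-sham 3. Replicate numbers shared by the groups did not pair the aortas (correlations of -0.35 to 0.47, 3 of 6 pairs over 0.1, and 1 of 6 aortas best with its own number). With the replicate number as a block 620 genes had an unadjusted p under 0.05, 0 passed, and the log2 fold changes were -0.84 for Adrb1, -0.88 for Adrb3 and -0.19 for Adra2c.

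The Adra1d log2 fold change was -0.28 with the smooth muscle score as a covariate and -0.014 to 0.39 when 1 aorta was left out. Without the 6 aortas with high kidney or cardiac scores (an alternative chosen after seeing the data for fold changes) it was -0.17 for Adra1b, 1.41 for Adra2b and 1.02 for Adra2c. That of Adra2b was -1.54 without Ad-FAM3A 3. In those 7 aortas r with the adipose score was 0.00977 for Adra2a, 0.283 for Adra2b and 0.233 for Adra2c, and with the smooth muscle score 0.265 for Adra2c and 0.792 for Adra1d (adjusted permutation p = 0.453, fewer aortas). With the summed CPM of the adipose list r was 0.690 for Adrb1 and 0.689 for Adra1a (adjusted permutation p = 0.0415 for both) and 0.00586 for Adra2c, and with the brown fat list 0.750 and 0.767 for Adrb1 and Adra1a. When 1 aorta was left out, r with the adipose score ranged from 0.600 to 0.711 for Adrb1, 0.592 to 0.827 for Adra1a, -0.0848 to 0.346 for Adra1d, -0.258 to 0.115 for Adra2b and -0.275 to 0.144 for Adra2c, Adrb1 and Adra1a passing only without Ad-FAM3A 1 (adjusted permutation p = 0.0392 and 0.00539). For Adra2a r with the adipose score ranged from -0.507 (without Ad-FAM3A 5) to -0.145 (without Ad-FAM3A 3), and for Adra1b from -0.296 to -0.00715. Adra1d with smooth muscle ranged from 0.765 (without Ad-FAM3A 6, adjusted permutation p = 0.0546) to 0.948. Where no construction is named, the cause was not tested. Adra2b was not among the genes with at least 10 counts in every aorta.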
